A study of Rattus norvegicus with 24 samples.

Results

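The effect of the obese genotype on liver transcripts was taken over both diets at once, from all 24 rats of the series. The 12 obese Zucker rats carried the fa mutation of the leptin receptor on both copies (fa/fa) and were compared with 12 heterozygous lean rats (fa/+), with diet as a covariate. Members were chosen by genotype alone, and every array of the series was used. All rats were males aged 25 weeks at the start, kept in pairs, which the labels do not tie to arrays, and killed non-fasted after feeding for 4 weeks. The groups were LC (lean, basal diet), LE (lean, basal diet with ecdysterone), OC (obese, basal diet) and OE (obese, basal diet with ecdysterone), of 6 rats each; ecdysterone, an insect moulting hormone also made by plants, was given at 0.5 g per kg diet. Each rat gave 1 Clariom S array of whole liver, a microarray that reads 1 signal per transcript on a log2 scale. All lean rats carried 1 fa allele, so wild-type homozygotes were not part of the comparison.

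Leptin, the hormone released by fat tissue, limits food intake through its receptor in the brain, and rats without a working receptor overeat, become insulin resistant and store triglycerides in the liver. High insulin and ample carbohydrate turn on fatty acid synthesis through the transcription factors SREBP-1c and ChREBP, and fatty acids that reach the liver turn on oxidation genes through PPARα. In male rats, pulses of growth hormone acting through STAT5b keep a male set of liver genes on and a female set low.

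The array signals ranged from 2.69 to 19.9, and the array medians lay between 6.51 and 6.61. Hepatocyte markers were near the top of the scale, with mean signals of 19.9 for Alb and 18.6 for Apob. On the first principal component, which held 18.1% of the variance, all 12 lean rats lay below 0 and all 12 obese rats above it. The fa allele is a missense mutation, so the level of Lepr does not check the labels; its signal had a median of 10.7 in obese and 10.8 in lean rats, and its difference of -0.03 did not pass the test (adjusted p = 0.978). 1 OE rat, replicate 23, held the isolated value in 12 of the 49 cases in which 1 rat of a group of 6 stood apart for a gene named here, and the number of calls is also given without it.

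Across 23188 transcripts, 1539 differed between genotypes at an adjusted p under 0.05 (limma with Benjamini-Hochberg adjustment), which is 6.64% of those tested. Of these, 841 (3.63%) were higher and 698 (3.01%) lower in the obese rats. A difference over 2-fold was reached by 146 of the higher and 133 of the lower transcripts. Without OE replicate 23, 1480 transcripts were called. At a fold change (FC) past 1.3 with an unadjusted limma p under 0.05, the study's thresholds but not its test, 2000 transcripts (8.63%) passed, 1106 higher and 894 lower, and 1408 of them were also called after adjustment. Signals of all 12 obese rats lay outside the range of the 12 lean rats for 121 transcripts (0.522% of those tested).

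The transcripts that rose most came from lipid synthesis and uptake, steroid metabolism and hormone reception. The prolactin receptor Prlr had signals of 11.6 to 13.7 (median 13.0) in obese rats and 6.27 to 11.9 (median 8.26) in lean rats, a difference of 4.47 ± 0.42 (SE), or an FC of 22.2. A single lean rat reached into the obese range. LOC681458, by its annotation a relative of stearoyl-CoA desaturase 3, rose by 4.46 and Elovl6, which extends palmitate to stearate, by 3.46. LOC102549542, an Elovl6-like transcript that may share probes with Elovl6, rose by 3.29. Cyp17a1, the steroid 17-hydroxylase, rose by 3.34, and Cd36, the fatty acid translocase, by 3.08, in both cases with no overlap between genotypes. The whey acidic protein family member Wfdc21 (3.37) and the integrin-binding matrix protein Edil3 (2.95) were also among the largest rises.

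The largest falls were larger than the largest rises. Acnat2, an acyl-CoA amino acid N-acyltransferase, had signals of 12.1 to 15.5 (median 14.1) in lean rats and 5.70 to 6.68 (median 6.43) in obese rats, a fall of 7.74 on the log2 scale (FC 214). The median of all transcripts was 6.55, and no detection call was used, so folds against such low signals may understate the change. Stac3, known from the calcium release machinery of skeletal muscle, went from a median of 14.1 in lean rats to 6.29 in obese rats, a fall of 7.50. No obese rat came near the lean range for either gene. LOC100912405 (urinary protein 3-like) and LOC100360095 (urinary protein 1-like), whose close relatives could share their probes, differed by -5.57 and -5.37, and LOC100360049 by -5.14. Cdh17, a cadherin of liver and intestine, fell by 5.50, Cyp3a18 by 4.38 and Nrep by 4.11. Socs2, the feedback inhibitor of growth hormone signalling, fell by 3.96. Sds, which turns serine into pyruvate, fell by 4.08 ± 0.69 (SE) with the genotypes overlapping, as 1 lean rat had a signal of 5.94 against a lean median of 12.3.

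Each diet on its own gave a genotype comparison of 6 against 6 rats, and the 2 shared no animals. OC vs. LC called 600 transcripts (2.59%) and OE vs. LE 489 (2.11%). Both called 284 in the same direction, which was 47.3% of the first list and 58.1% of the second, and no transcript was called in opposite directions. With the methods' t-test each list was shorter by over 2 times, OE vs. LE calling 134, and 72 transcripts were called in both with the same sign. With each diet fitted alone in limma, OC vs. LC called 550 and OE vs. LE 420, with 248 called in both with the same sign. The sign was the same in the other diet for 97.2% of the transcripts called in OC vs. LC and for 97.5% of those called in OE vs. LE, against 61.3% of all transcripts. The transcripts called in OC vs. LC had a median size of 0.96 there and a median of 0.71, in the same direction, in OE vs. LE. Those called in OE vs. LE had a median size of 0.94 there and of 0.87 in OC vs. LC. The difference between the genotype effects of the diets (genotype by diet interaction) was called for 0 transcripts by limma. Its lowest adjusted p was 0.9995. Of the 23188 transcripts 912 had an unadjusted interaction p under 0.05, a smaller share than the 0.05 that chance gives. In 11 further fits 0 transcripts were called as well.

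**Figure D1:**
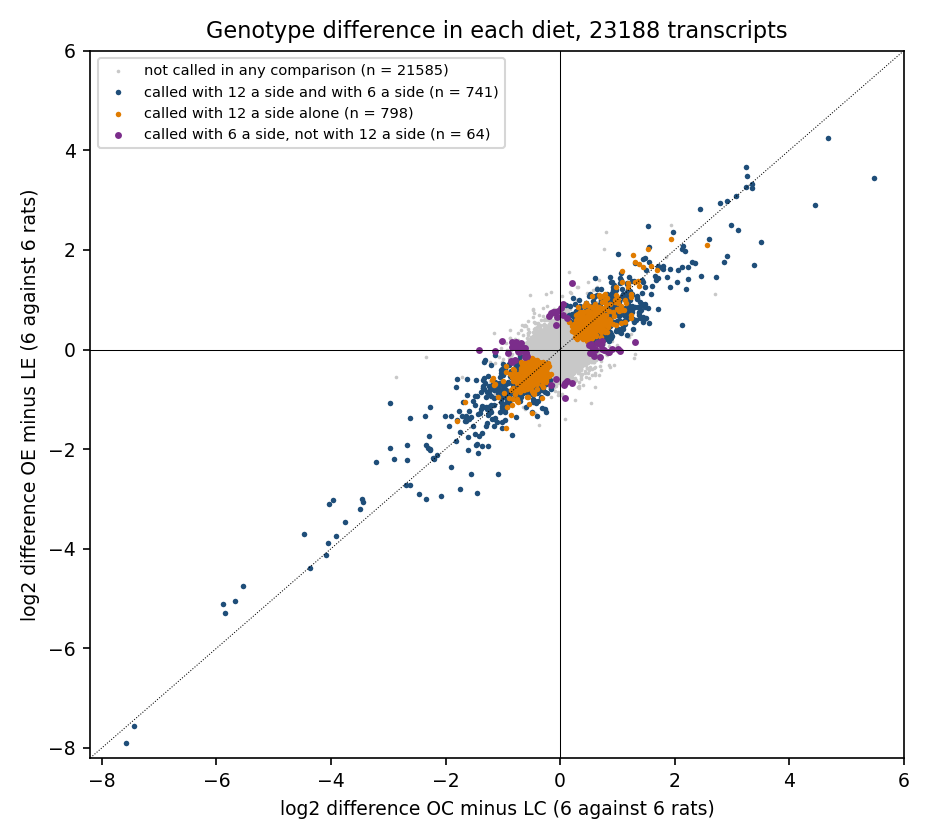
Log2 difference between obese and lean rats on the basal diet (OC minus LC, horizontal axis) and with ecdysterone (OE minus LE, vertical axis), 1 point per transcript, with the dotted line marking equal differences. The 798 transcripts called with 12 rats a side alone lie in the lower left and upper right, mostly nearer to 0 than the 741 that were also called with 6 a side.

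Pooling the diets added 798 transcripts (3.44% of those tested) that neither comparison of 6 against 6 rats called, 51.9% of the 1539. They divided into 434 higher and 364 lower in obese rats. With the methods' t-test, 1129 of 1424 calls were reached with 12 a side alone. With each diet fitted alone in limma, 881 of the 1539 were. By the way they were chosen, all 798 had the same sign in both diets; 540 had an unadjusted p under 0.05 in both diets and 258 in 1 of them. In 290 of them the lowest adjusted p with 6 rats a side was under 0.1, the closest at 0.0500. With 12 rats a side the last transcript inside the threshold had an adjusted p of 0.04999 and the first outside it 0.05001. Without OE replicate 23, 765 transcripts were called in this way.

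The sizes and errors of these transcripts are given as a description, since missing the threshold with 6 rats a side favours small differences. The median size of the difference was 0.48 against 0.80 for the 741 called already with 6 a side, and the median SE 0.129 against 0.148. Over all transcripts the median SE was 0.128 with 12 rats a side and 0.181 with 6. Of 131 called transcripts with an FC under 1.3, 124 were of this kind, whereas 30 of the 798 exceeded 2-fold. Dim transcripts, with mean signals under the median transcript, made up 19.8% of them and 12.1% of the 741. Between the genotypes the rats overlapped for all but 2 of the 798, Mup4 and, narrowly, Crp, which were picked out here after their values were seen.

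**Figure D2:**
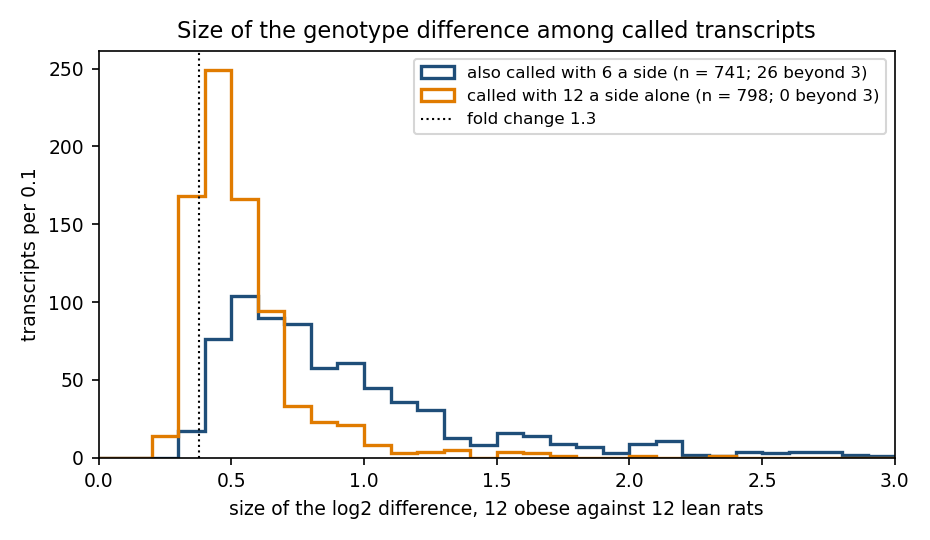
Number of called transcripts (vertical axis, per 0.1) by the size of their log2 difference between 12 obese and 12 lean rats (horizontal axis), for the 741 also called with 6 rats a side and the 798 called with 12 a side alone. The second set peaks between 0.4 and 0.5, close to the dotted line at an FC of 1.3.

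Among the rises called only with 12 rats a side, those with the smallest p ran from enzymes of sugar metabolism to innate sensors and matrix. Taldo1, the transaldolase of the pentose phosphate pathway, had signals of 11.5 to 12.2 (median 11.8) in obese rats and 10.6 to 11.7 (median 11.2) in lean rats, a difference of 0.64 ± 0.13 (SE; adjusted p = 0.00131). In each diet alone it differed by 0.62 and 0.65, with adjusted p of 0.0697 and 0.0601 in limma. Tlr3, the receptor for double-stranded RNA, rose by 0.57 from a lean median of 8.53, and Ddit4, an inhibitor of mTORC1 signalling, by 0.66 from 5.57. In both, 10 of the obese rats lay above every lean rat. The matrix proteoglycan decorin, Dcn, had obese signals of 8.23 to 10.2 (median 8.94) and lean signals of 7.20 to 8.65 (median 8.06), a difference of 0.98 ± 0.19. Hba-a1, the alpha chain of haemoglobin, rose by 1.33 ± 0.26, and 1 lean rat at 13.3 exceeded the obese median of 12.9. Tmem120b rose by 0.58, the calcium sensor Ncald by 0.96, the RNA-binding protein Rbm46 by 0.72 and RGD1562690 by 0.45. Ncald had lean signals of 3.72 to 4.39, near the bottom of the scale. Ctnna3 rose by 0.54 in its brightest probe set and by 0.66 and 0.60 in 2 others, and the fourth differed by 0.25 without a call.

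The falls of this kind with the smallest p included enzymes and matrix genes. Ddc, the decarboxylase that makes dopamine and serotonin, went from a lean median of 10.3 (9.43 to 10.7) to 9.43 (8.89 to 9.99) in obese rats, a fall of 0.72. Hsd3b7, the 3β-hydroxysteroid dehydrogenase of bile acid synthesis, fell by 0.64 and 10 of the lean rats lay above every obese rat. Cyp2j3, a P450 that forms epoxides of arachidonic acid, fell by 0.71. The small leucine-rich proteoglycan Omd fell by 0.84 and Loxl4, a collagen cross-linking oxidase, by 0.83. Trpm6, a magnesium channel, fell by 0.69, the protocadherin Pcdh1 by 0.69 and Yipf2 by 0.67. The olfactory receptor Olr1242 fell by 0.59 at lean signals of 4.11 to 5.11, near the bottom of the scale.

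The members of this set with the largest differences were spread widely between rats. Cyp7a1, which sets the pace of the classical route to bile acids, had means of 10.6 ± 1.98 in LC, 8.90 ± 1.14 in LE, 12.5 ± 1.89 in OC and 11.1 ± 1.39 in OE (SD, n = 6). The pooled difference was 2.08 ± 0.56 (SE), and its adjusted p of 0.0184 became 0.0588 when a clock gene score was added to the model, where the difference was 1.67. Cyp2c24 differed by 2.33, with 1 OE rat, replicate 23, at 14.2 and the next at 8.16; without that rat the difference was 1.76. Rgs16, which switches off G protein signals, rose by 1.64, Tex36 by 1.55 and LOC100909409 by 1.55, while a second probe set of LOC100909409 differed by 0.50 without a call. The fructose transporter Slc2a5 rose by 1.53, the macrophage elastase Mmp12 by 1.37 and the membrane-binding annexin Anxa2 by 1.33. Ranbp3l, named for its second probe set (1.59), was called in OE vs. LE by its brighter one. Calls for Cyp7a1, Cyp2c24, Rgs16, Slc2a5 and Mmp12 were lost with the clock covariate, and also in the methods' t-test and with a robust, trended prior. Slc2a5 lost its call without any 1 of 15 arrays and Mmp12 without any 1 of 6 (highest adjusted p = 0.0833 and 0.065).

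On the falling side, Ccnd1, the G1 cyclin, went from a lean median of 11.5 (8.78 to 13.2) to 9.37 (8.28 to 11.2) in obese rats, a fall of 1.62 ± 0.40 (SE). Cyp7b1, which 7α-hydroxylates oxysterols in the alternative route of bile acid synthesis, fell by 1.08, with 1 LE rat at 10.4 above all others. The aldo-keto reductase Akr1c2 fell by 1.26. Ficd, which modifies the chaperone BiP, fell by 1.02, the ISG15-removing protease Usp18 by 0.98 and LOC100910979, interferon-inducible GTPase 1-like, by 1.04. Plekhb1 fell by 0.92 and RGD1564074 by 0.79. Mup4, a major urinary protein made by male rat liver, stood at 19.7 to 19.9 in all lean rats, at the top of the measured scale, and at 14.5 to 19.6 in obese rats. Its SD was 0.06 in lean and 1.62 in obese rats, and limma took 1 spread for both. No obese rat reached a lean one. The limma adjusted p of the Mup4 difference, -1.36, was 0.0393 and became 0.0628 without OE replicate 23. Its call was lost without any 1 of 12 arrays, in the methods' t-test, with a robust, trended prior and with the clock covariate (adjusted p = 0.0886).

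**Figure D3:**
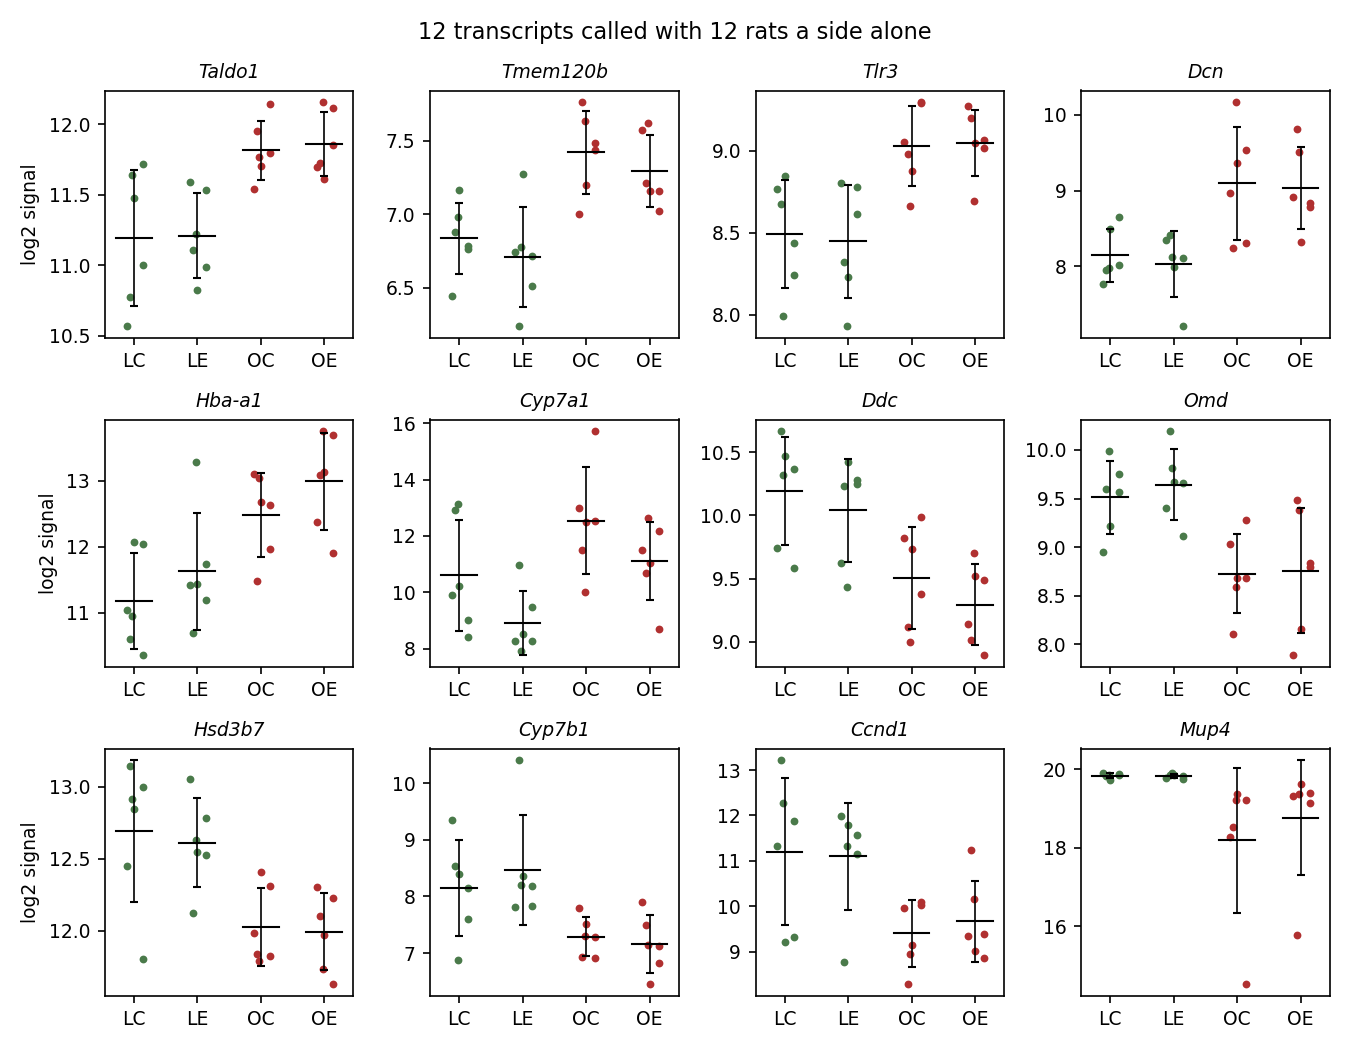
Log2 signal (vertical axis) of each rat in LC, LE, OC and OE for 12 of the transcripts called with 12 rats a side alone; green points are lean rats, red points obese rats, lines the group mean and bars ± 1 SD (n = 6). Genotypes overlap in all panels but Mup4, and the shift is of like size on both diets for Taldo1, Dcn and Hsd3b7.

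Gene lists were read against the share of all transcripts called, and their members are counted by the brightest probe set of each gene. That share, 6.64%, includes dim transcripts, which were called less often. With below-median signals left out and p-values adjusted again, 1614 of 11594 transcripts were called. In fatty acid synthesis and desaturation 11 of 14 measured members rose and none fell, with all 14 above 0 and a median difference of 0.89, against -0.01 over all transcripts. Me1, the malic enzyme that supplies NADPH, rose by 2.10 ± 0.30 (SE), from a lean median of 12.7 to 14.7. Fasn, fatty acid synthase, rose by 1.66 and the desaturase Scd2 by 2.54. None of the 11 needed 12 rats a side, but 10 of the 14 members were called in OC vs. LC and 3 in OE vs. LE. Their regulator Srebf1 rose by 0.94 and was called in OC vs. LC, whereas its difference was 0.65 in OE vs. LE and not called. The interaction was not called either.

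Storage and assembly followed in smaller numbers. Of 14 glycerolipid genes, 4 rose and 1 fell; Gpam, which adds the first fatty acid to glycerol phosphate, rose by 2.75 and Dgat2, which adds the last, by 1.26. Of 18 lipid droplet proteins and lipases, 7 rose and 1 fell, and 5 of these 8 were called with 12 rats a side alone. The lipase-like Pnpla3 rose by 2.83, Cidea by 2.12 and Plin3 by 1.34 with 6 a side. The droplet proteins Hsd17b13 (0.52), Cidec (0.55) and Plin2 (0.84) and the monoglyceride lipase Mgll (0.57) joined them at 12 a side. Abhd5, the activator of the main triglyceride lipase, fell by 0.59. Plin2 had obese signals of 13.4 to 15.0 and lean signals of 12.3 to 14.7, and its call was lost when any 1 of 10 arrays was left out (highest adjusted p = 0.0681).

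Of 12 genes of fatty acid uptake and activation, 5 rose and 1 fell, all of them called with 6 rats a side as well. Fabp4, a fatty acid binding protein of fat cells and macrophages, rose by 2.87 ± 0.30 (SE) from a lean median of 4.61 to 7.27. Its lean signals, 3.84 to 5.32, lay around the mean level of smell and taste receptors in lean rats (4.83 to 5.06), so its difference may be larger than measured. Fabp2, the intestinal form, rose by 2.17, Fabp5 by 1.95 and the acyl-CoA synthetase Acsl5 by 1.11. Acsl4, which prefers arachidonic acid, fell by 1.24. Apoa1 (1.08) and Apoa4 (0.82), apolipoproteins of secreted particles, rose and Apoa5 fell by 0.77. Mttp, which loads triglyceride onto apolipoprotein B, rose by 0.63 and Tm6sf2 by 0.56, both with 12 a side alone and Apoh, a phospholipid-binding plasma protein, fell by 0.28. In all, 5 of 21 lipoprotein genes rose and 2 fell.

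Of 22 genes of mitochondrial fatty acid oxidation 7 rose, 1 fell and 14 were not called, with a median of 0.27. Hadhb, a subunit of the trifunctional protein, had signals of 13.7 to 14.5 in obese rats and 12.9 to 13.4 in lean rats, a difference of 0.99 ± 0.10 (SE) with no overlap. Acadl, the long-chain dehydrogenase, rose by 0.78 without overlap. Acat1, which makes acetoacetyl-CoA, rose by 0.49 with 12 a side alone. The exception was Acadm, the medium-chain dehydrogenase, which fell by 0.42, also with 12 a side alone. Of 33 peroxisomal genes 8 rose, 1 fell and 24 were not called, and none of the 33 was called in OE vs. LE: Ehhadh (0.95) and Pex11a (0.94) with 6 a side in OC vs. LC, and Acox3, the falling member (-0.48), with 12 a side. In the citrate cycle 6 of 20 rose and none fell, 5 of them with 12 a side alone, among them Dlat (1.15), a pyruvate dehydrogenase subunit. After centring each array on its median, 3 members were called. Of 74 subunits of oxidative phosphorylation, 3 rose and none fell, a share of 4.05% beside the 6.64% of all transcripts, and 6 rose with quantile normalisation.

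**Figure D4:**
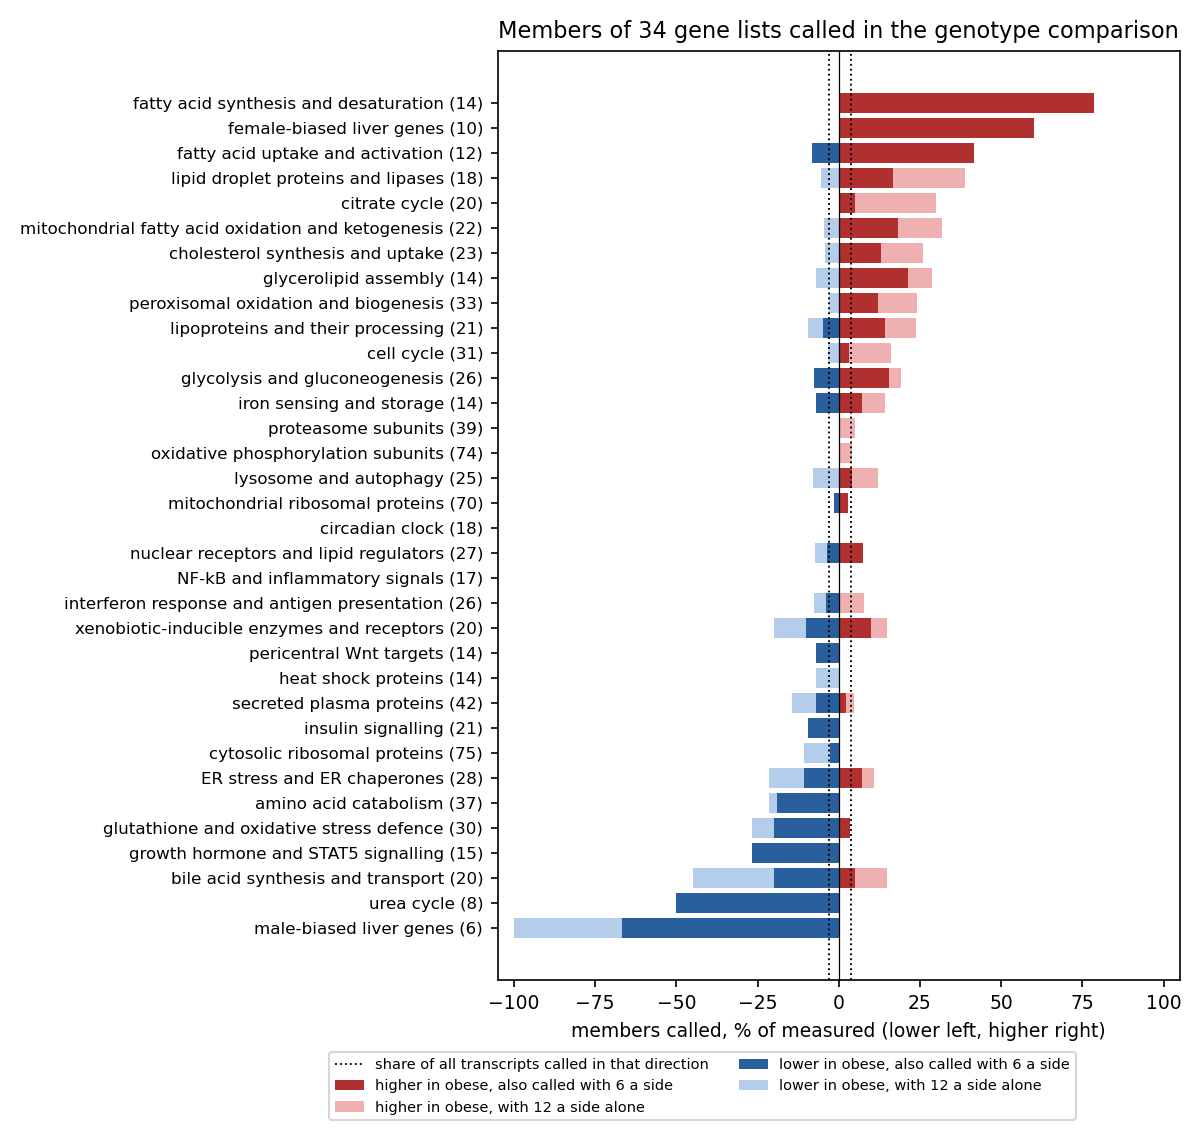
Share of measured members (horizontal axis, %) called higher (red, to the right) or lower (blue, to the left) in obese rats for 34 gene lists, with the number measured in brackets; pale parts are members called with 12 rats a side alone and dotted lines the shares of all transcripts, 3.63% and 3.01%. Fatty acid synthesis stands at one end and male-biased genes at the other, and pale parts make up most of the citrate cycle bar.

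Cholesterol synthesis and uptake held 6 rises and 1 fall among 23 measured genes, 4 of the 7 with 12 rats a side alone. The median was 0.44, with 0.70 in OC vs. LC and 0.22 in OE vs. LE. Lss, lanosterol synthase, had obese signals of 8.81 to 10.6 (median 9.47) and lean signals of 7.89 to 9.28 (median 8.78) and rose by 0.91. Tm7sf2 (0.98) and Sc5d (0.68), later enzymes of the same route, rose as well. Sqle, squalene epoxidase, rose by 1.03 and Hsd17b7, a ketoreductase of the route, by 0.51; their calls were lost without any 1 of 12 and of 16 arrays (highest adjusted p = 0.0773 and 0.0818). Stard4, a cholesterol carrier, fell by 0.60.

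The promoters of the 4 called cholesterol genes found in the RefSeq promoter table (rat build GRCr8) are shown. All 4 genes rose, and each promoter holds the letters CCAAT, the motif that NF-Y, a known partner of SREBP, binds. Whether either factor had a part in the rise was not tested. The 250 bases before each annotated start are given 5′ to 3′ on the gene's strand, with CCAAT or its complement ATTGG in capitals.
Lss, chr20:12118231-12118480, minus strand: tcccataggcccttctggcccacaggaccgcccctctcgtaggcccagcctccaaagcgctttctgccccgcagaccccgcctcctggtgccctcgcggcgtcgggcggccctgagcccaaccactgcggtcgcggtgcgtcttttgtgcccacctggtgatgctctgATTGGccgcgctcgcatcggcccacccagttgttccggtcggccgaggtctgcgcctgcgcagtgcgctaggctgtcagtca
Tm7sf2, chr1:212789542-212789791, minus strand: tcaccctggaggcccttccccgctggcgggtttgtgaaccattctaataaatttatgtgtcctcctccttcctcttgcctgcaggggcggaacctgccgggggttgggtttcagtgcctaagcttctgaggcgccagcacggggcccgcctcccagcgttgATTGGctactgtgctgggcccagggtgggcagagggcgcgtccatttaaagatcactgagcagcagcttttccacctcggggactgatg
Sc5d, chr8:51538278-51538527, minus strand: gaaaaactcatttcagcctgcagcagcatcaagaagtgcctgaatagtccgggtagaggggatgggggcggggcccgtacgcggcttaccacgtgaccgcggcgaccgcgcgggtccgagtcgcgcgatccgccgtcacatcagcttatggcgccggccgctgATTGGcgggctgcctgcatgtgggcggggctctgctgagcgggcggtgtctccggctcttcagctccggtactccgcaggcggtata
Hsd17b7, chr13:84722755-84723004, minus strand: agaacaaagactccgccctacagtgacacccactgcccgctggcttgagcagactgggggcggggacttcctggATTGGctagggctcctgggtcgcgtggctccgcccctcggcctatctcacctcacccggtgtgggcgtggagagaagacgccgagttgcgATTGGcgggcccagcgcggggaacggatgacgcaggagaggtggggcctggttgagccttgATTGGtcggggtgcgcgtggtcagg
In Lss, Tm7sf2 and Sc5d the single match began 82, 89 and 87 bases before the start site, and Hsd17b7 held 3 matches, 1 of them 86 bases before it. Of the 15 promoters of the cholesterol list in the table, 13 held CCAAT on either strand (86.7%), against 34.0% of all 33469 promoters. Lists were counted with 1 promoter per gene, which was not done for the 33469. Of the 11 members that were not called, 9 held it as well. Of 10 fatty acid synthesis promoters in the table, 8 held it. The sterol element TCACNCCAC was in none of the promoters of either list and in 0.974% of all, and the STAT motif TTCNNNGAA was in 2 of 13 promoters of growth hormone and STAT5 genes and in 7.67% of all.

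Of 20 bile acid genes measured, 9 fell, 3 rose and 8 were not called, with a median of -0.39; 7 fell with quantile normalisation and 7 with the clock covariate. Of the 12 called, 7 needed 12 rats a side. Cyp7a1 rose, whereas Cyp7b1 and Hsd3b7, described above, fell, as did Acnat2. Amacr, a racemase of side chain shortening, fell by 1.16 and Baat, which conjugates bile acids, by 0.52. The canalicular exporter Abcc2 fell by 1.28 ± 0.16 (SE), from lean signals of 16.0 to 16.9 to obese signals of 14.2 to 15.8, without overlap. The bile salt export pump Abcb11 fell by 0.45, a call lost without any 1 of 13 arrays (highest adjusted p = 0.0708). Nr0b2, the repressor SHP, rose by 1.03.

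Genes that differ between male and female rat liver moved as opposed groups. All 6 male-biased genes measured fell, 2 of them with 12 rats a side alone. This list, like the others, was written with earlier results of these data known. The P450 Cyp2c11 had lean signals of 18.8 to 19.3 and obese signals of 15.8 to 18.5, a fall of 2.01 ± 0.23 (SE). Car3, carbonic anhydrase 3, fell by 3.61 and Hsd3b5 by 0.66, beside Cyp3a18 above. Cyp2c13 (-0.33) and the transporter Slco1a1 (-0.34) were the members that needed 12 a side, and they lost their calls when any 1 of 8 and of 13 arrays was left out (highest adjusted p = 0.0666 and 0.0826), with quantile normalisation and with the clock covariate. Of 10 female-biased genes 6 rose and none fell, among them Prlr, the sulphotransferases Sult2a6 (2.41) and Sult2a2 (1.59), Cyp2c7 (0.76) and Srd5a1 (1.04). A second probe set of Cyp2c7 differed by -0.13, and Srd5a1 lost its call without LC replicate 2 (adjusted p = 0.0501). Of 15 genes of growth hormone and STAT5 signalling, 4 fell, none rose, and all 15 were below 0. Besides Socs2 these included Igf1, the growth factor released by liver (-0.75 ± 0.08, SE, no overlap), and the transcription factor Onecut1 (-2.03).

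Of 20 xenobiotic-inducible enzymes and receptors 3 rose and 4 fell. Aldh1a1 and Aldh1a7, retinal and aldehyde dehydrogenases of close sequence, each rose by 2.08. In both a single LC rat, of 12 lean, lay inside the obese range. Cyp2e1, the ethanol-inducible P450, fell by 1.09. Of 30 glutathione and oxidative stress genes 8 fell and 1 rose. Gstm2 fell by 0.85 and Gclm, of glutathione synthesis, by 0.46 with 12 a side alone, whereas Gsta3 rose by 1.71.

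Of 26 genes of glycolysis and gluconeogenesis, 5 rose and 2 fell. G6pc, the phosphatase that releases glucose, fell by 2.27 ± 0.49 (SE), with lean signals of 11.6 to 15.3 and obese signals of 9.12 to 14.3. Pck1, the first committed enzyme of gluconeogenesis, fell by 1.29. Gapdh, often used as a reference gene, rose by 0.46, and Ldha, lactate dehydrogenase, by 0.42 with 12 a side alone. Of 21 insulin signalling genes, with a median signal of 9.75, 2 were called, a share of 9.52% beside the 6.64% of all transcripts, dim ones included. With below-median signals left out, 1614 of 11594 transcripts were called, a larger share than that of this list. Both called genes fell, the receptor substrates Irs1 (-0.80) and Irs2 (-1.11). Irs2 lost its call without any 1 of 11 arrays (highest adjusted p = 0.0693).

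Of 37 genes of amino acid catabolism 8 fell, none rose and 29 were not called, with 24 below 0 and a median of -0.05 (6 fell and 19 lay below 0 with quantile normalisation). Among those that fell were Hal, which removes ammonia from histidine, by 1.82, Got1 by 1.74 and Sds as above. Tat, tyrosine aminotransferase, fell by 0.90 with 12 a side alone, a call lost without any 1 of 14 arrays (highest adjusted p = 0.0853). Of 8 urea cycle genes 4 fell and none rose, among them Asl by 1.37, the ornithine carrier Slc25a15 by 0.90 and Cps1, which commits ammonia to the cycle, by 0.63. Cps1 had lean signals of 17.8 to 18.5 and obese signals of 16.8 to 18.0.

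Small shifts over many members were seen in the translation and secretion machinery. Of 75 cytosolic ribosomal proteins, with a median signal of 13.5, 8 fell and none rose, 6 of the 8 with 12 a side alone. The share called was 10.7% beside the 6.64% of all transcripts, dim ones included. With below-median signals left out, 1614 of 11594 transcripts were called, a larger share than that of this list. Of the 75, 67 lay below 0 with a median of -0.15, and the 67 became 58 with quantile normalisation and 70 with median centring. Rpl23 fell by 0.38. Many ribosomal protein genes have near-identical copies. Of 28 genes of ER stress and chaperones 6 fell and 3 rose. The transcription factor Xbp1 fell by 0.99 ± 0.14 (SE) and the glutathione-degrading Chac1 by 1.04, and with 12 a side alone the chaperone Hsp90b1 fell by 0.61 and the isomerase Pdia6 by 0.50. Asns, asparagine synthetase, rose by 1.81 and the isomerase P4hb by 0.50, again with 12 a side alone.

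Among 42 secreted plasma proteins 6 fell and 2 rose. Orm1, an acute phase glycoprotein, rose by 1.34 without overlap. Crp, C-reactive protein, fell by 0.38, from lean signals of 19.4 to 19.7 to obese signals of 18.5 to 19.4, near the top of the scale. Its genotypes all but touched, with the lowest lean rat at 19.3812 and the highest obese rat at 19.3803. Coagulation factor F11 fell by 0.67. Hamp, hepcidin, fell by 1.07 and Aco1, an iron-sensing protein, rose by 0.91. Of 26 interferon and antigen presentation genes 2 rose and 2 fell, the latter Oas1a (-1.52) and Usp18. Of 17 NF-kB and inflammatory genes limma called 0, with 2 at an unadjusted p under 0.05. Of 27 nuclear receptors and lipid regulators 2 rose and 2 fell, and Nr3c1, the glucocorticoid receptor, fell by 0.95 without overlap. Of 18 clock genes limma called 0, with 4 at an unadjusted p under 0.05 and a median of 0.22. Over all 23188 transcripts, 4174 had an unadjusted limma p under 0.05. The clock output gene Dbp differed by 1.58, without a call (adjusted p = 0.331 in limma). The score of clock genes ran from -5.20 to 2.94 in lean rats (median -1.60) and from -2.69 to 2.97 in obese rats (median 0.01), so the genotypes overlapped; its part in the other results was not tested beyond the fits that held it as a covariate. Of 31 cell cycle genes 5 rose and Ccnd1 fell, and Mki67, the proliferation marker, rose by 0.92 from a lean median of 6.36.

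Markers of other cells moved with genotype for some types, and in whole liver more cells of a type and more RNA per cell cannot be told apart. Of 25 stellate cell and matrix genes 10 rose and none fell, 4 of them with 12 a side alone. The mean signal of the list was 7.68 to 8.01 in lean and 8.01 to 8.58 in obese rats. Omd (-0.84) and Loxl4 (-0.83), matrix genes outside this list, fell with 12 a side alone. Rgs5, a pericyte marker, rose by 1.64 ± 0.16 (SE) and Sparc by 0.97, both without overlap, Col3a1 by 0.75, Acta2 by 0.79, Tagln by 1.23 and Timp1 by 0.60. Of 17 red cell genes 7 rose and none fell, with a list mean of 6.50 to 6.99 in lean and 6.73 to 7.42 in obese rats; besides Hba-a1 these included Alas2 (0.78), of erythroid haem synthesis. Their part in the other results was not tested. Of 17 macrophage markers and of 7 bile duct markers limma called 0, with 2 and 0 at an unadjusted p under 0.05. By the methods' t-test these lists had 0 calls too. Over all 23188 transcripts, 4174 had an unadjusted limma p under 0.05. Of 7 neutrophil markers S100a9 rose (0.69), and of 18 lymphocyte markers 1 fell (5.56%). Of 7 markers of lipid-associated macrophages Fabp5 and 1 other rose, of 8 adipocyte markers Cidec rose, and of 12 endothelial markers 1 rose and 1 fell. Of 9 hepatocyte markers Asgr1, a galactose-binding receptor, fell by 0.94 without overlap, Cyp2e1 fell and Apoa1 rose, while Alb differed by -0.03. Smell and taste receptors, which liver hardly expresses, gave 17 calls among 1343 genes, 1.27% against 6.64% of all transcripts, and 14 of the 17 needed 12 a side.

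Pooling also removed calls. Of the transcripts called with 6 rats a side, 64 were not called with 12, 45 from OC vs. LC and 19 from OE vs. LE. Their median size was 0.71 in the diet that called them and 0.08 in the other, and 29 had opposite signs in the diets. Fv1, Mgat4e and Ankrd33b were among the 5 with the smallest p in the diet that called them. Fv1 differed by -0.85 in OC vs. LC and by 0.16 in OE vs. LE, Mgat4e by -0.09 and 0.74, and Ankrd33b by -0.78 and 0.15. Their unadjusted interaction p were 6.65e-05, 0.000493 and 0.000275 in limma, and none of the 3 passed adjustment (adjusted p = 1.00), so a difference between the diets was not shown for them.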

How the data were processed

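Liver RNA of 24 rats was measured on Clariom S rat arrays, 1 per rat. The authors processed the arrays with SST-RMA in Affymetrix Expression Console 1.4, which corrects background, normalises the arrays together and summarises probes, and deposited log2 signals for 23188 transcripts. A second deposited table held the same log2 signals rounded, differing by at most 0.005. Deposited columns of group comparisons (fold changes and p-values) were not used, and the build of the deposited coordinates is not given in the sources used here.

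Genotype was tested with limma 3.58.1 in R 4.3.3 (genotype plus diet, lmFit and eBayes), and OC vs. LC, OE vs. LE and their interaction in a fit of the 4 group means. P-values were adjusted by Benjamini-Hochberg over all transcripts with no filter on low signals, and a call needs an adjusted p under 0.05. The fits were tested on simulated data. A gene with several probe sets is given by the brightest. Differences are obese minus lean, with standard errors from the fit.

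Named genes were the 10 largest rises and falls, the 10 rises and falls with the smallest p and the largest size among transcripts called with 12 rats a side alone, up to 6 called members of each list with the smallest p or members a list result turns on, up to 5 transcripts that lost their call, and Lepr. The rule, comparisons and lists were chosen with earlier results of these data known. A few genes that the rule picks are not reported here. Cages are not tied to arrays in the labels, so rats were treated as independent and p-values measure the spread between them. The number of arrays limits the precision. Alternatives covered the model, test, variance prior, array weights, scaling, low signals, repeated transcripts, probe sets, threshold, each array left out, and a score of clock genes (mean of Dbp, Nr1d1, Per3 and Ciart minus mean of Arntl, Npas2 and Clock) as a covariate. Promoters came from RefSeq (GRCr8). Python 3.11.15 and matplotlib 3.10.9 were used for counts and plots.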

Additional observations from a re-analysis of the deposited data

Results flagged for a closer look

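A rat was singled out where its gap to the nearest rat of its group, as a share of that group's range, was above Dixon's 95% critical value of 0.625 for 6 samples. This was so in 49 of 624 groups of 6 rats, over 156 genes, where chance gives about 1 in 20; genes and groups share their arrays. OE replicate 23 was the isolated rat in 12 of the 49, LC replicate 5 in 6, LC replicate 1 in 5 and LE replicate 11 in 5. Each value below is that share of the range, after the side on which the rat lay.

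OE replicate 23 stood apart for Edil3 (high, 0.722), LOC100360095 (low, 0.785), Cyp2c24 (high, 0.737), Mup4 (low, 0.876), Gpam (low, 0.712), Acsl5 (low, 0.643), Acadm (low, 0.674), Apoa4 (low, 0.744), Slco1a1 (low, 0.9), Pck1 (low, 0.646), Dlat (low, 0.666) and Srebf1 (low, 0.692). Its signals were 14.2 for Cyp2c24 with the next rat at 8.16, 15.8 for Mup4 with the next at 19.2, and 7.86 for LOC100360095 with the next at 13.1.

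Among the other OE rats, the rats apart were replicate 19 for Hsp90b1 (low, 0.657), replicate 20 for Olr1242 (low, 0.753), replicate 21 for Hadhb (high, 0.63), replicate 22 for Cyp17a1 (low, 0.64) and Lepr (high, 0.634), replicate 24 for Abcb11 (low, 0.646). In OC, the rats apart were replicate 13 for Fv1 (low, 0.683), replicate 14 for Tex36 (high, 0.687), replicate 16 for Mup4 (low, 0.774) and Hsd3b5 (low, 0.643), replicate 17 for Rbm46 (high, 0.705), replicate 18 for Mgll (low, 0.646), Hsd17b7 (low, 0.762) and Gapdh (low, 0.63). In LC, the rats apart were replicate 1 for Sds (low, 0.659), Cidea (high, 0.672), Cyp2c11 (low, 0.783), Aldh1a7 (high, 0.901) and Pck1 (low, 0.692), replicate 3 for Fasn (low, 0.648) and G6pc (high, 0.793), replicate 5 for Edil3 (low, 0.665), Cyp3a18 (low, 0.789), Dgat2 (high, 0.657), Gclm (high, 0.724), Orm1 (low, 0.695) and Alas2 (low, 0.663). In LE, the rats apart were replicate 8 for Dcn (low, 0.646), Abhd5 (high, 0.663) and Mki67 (high, 0.75), replicate 10 for Gpam (high, 0.635), replicate 11 for Ccnd1 (low, 0.738), Cyp7b1 (high, 0.792), Ldha (low, 0.768), Hsp90b1 (high, 0.626) and Aco1 (low, 0.659), replicate 12 for Irs1 (high, 0.702).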

How the results depend on the processing

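With each array left out in turn, the number of calls ran from 1347 (without LC replicate 2) to 1529, with 732 to 861 higher and 615 to 716 lower, the calls made with 12 rats a side alone from 669 to 811, those shared by both diets from 221 to 299, and those past an FC of 1.3 from 1970 to 2104. At an adjusted p under 0.01, 861 transcripts were called, 469 higher and 392 lower, 497 of them with 12 a side alone, and 143 were shared by both diets. The methods' t-test gave 72 shared calls and 1129 calls with 12 a side alone against 798. With all arrays, the other fits gave 1424 to 1643 calls. Centring each array on its median put 757 of 1493 calls on the higher side (50.7%, against 54.6%) and moved the median of all transcripts to -0.02. The clock covariate gave 1439 calls, and 544 of the 798 were among them. The difference of Lepr, never called, changed sign with array weights (0.048) and lay between -0.195 and 0.105 with an array left out.

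Of 88 named genes called with 6 rats a side, 84 kept their call in every fit with all arrays and 86 without each array. Of 64 called with 12 a side alone, 46 and 54 did so. Besides the genes already given for these fits, Ctnna3, Abhd5, Stard4, Apoh, Sqle, Hsd17b7, Abcb11, Irs2 and Tat lost their calls with the clock covariate. In the methods' t-test Nr0b2, S100a9, Plin2, Sqle, Hsd17b7, Srd5a1, Irs2 and Tat lost theirs. With a robust, trended prior Plin2, Sqle, Srd5a1, Irs2 and Tat did so, and with quantile normalisation Apoh, Abcb11 and Tat. Hsd17b7 lost its call with median centring, Sqle with array weights and Cyp2c7 with the mean of its probe sets. The cause was not tested. Signals of Mup4 at the top of the scale limit the size of its difference. No paired analysis was possible because the labels number the rats from 1 to 24 and no number is shared between groups.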
